A study of Mus musculus and Rattus norvegicus with 12 samples.

Results

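The genes described here are the 32 enzymes of the tricarboxylic acid (TCA) cycle and of the reactions that feed it, drain it or carry its reducing power across the mitochondrial membrane. They are the core of the pyruvate dehydrogenase complex, the enzymes of the cycle, the anaplerotic and malic enzymes, citrate lyase, and the transaminases and malate dehydrogenases of the malate-aspartate shuttle. Members were taken by symbol from a list that was written with earlier results of these data known. All 32 of 32 were found among the 54087 symbols of the mouse table, and 31 of them among the 28909 symbols of the rat table, where Fh and Pc stand for Fh1 and Pcx. Ogdh was not analysed here in the rat. All 32 in the mouse and all 31 in the rat passed the filter on low counts.

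RNA was sequenced from 2 systems, a knockout and an siRNA treatment, that targeted Jmjd4, which encodes a JmjC-domain oxygenase. The cKO mice (n = 3) carried floxed Jmjd4 alleles (Jmjd4f/f) together with the MCM transgene, a tamoxifen-inducible Cre driven by the cardiomyocyte promoter of Myh6, and the flox mice (n = 3) carried Jmjd4f/f alone. Both received tamoxifen, and the heart apex was taken 14 days later; ages are not given in the labels used here. Effects of Cre itself and of the loss of Jmjd4 cannot be told apart, since the flox hearts hold no Cre. Neonatal rat ventricular cardiomyocytes (NRVCs) from 1-day-old Sprague-Dawley rats were given an siRNA against Jmjd4 (siJmjd4, n = 3) or a control siRNA (siNC, n = 3) for 48 h, in a medium that holds pyruvate. Nothing in the labels says whether the NRVC replicates were separate cell isolations, so p-values there reflect the spread between these samples alone, which may be technical.

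In the heart, acetyl-CoA from fatty acids and from pyruvate enters the cycle by joining oxaloacetate to form citrate. Isocitrate, 2-oxoglutarate and malate are then oxidised with the release of NADH, and succinate passes its electrons straight to the respiratory chain. Anaplerotic enzymes refill the cycle's intermediates, and the malate-aspartate shuttle carries the reducing equivalents of cytosolic NADH into the mitochondrion. Heart muscle is rich in these enzymes, most of which are encoded in the nucleus and imported into mitochondria.

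The 12 libraries held 57174654 to 82187009 counts each. Values below are counts-per-million (CPM) scaled by the trimmed mean of M values (TMM), and a gene is called changed at an adjusted p under 0.05 in edgeR's quasi-likelihood test over all genes of its table. Flox replicate 3 stood apart: 41.7% of its counts fell on mitochondrial genes, against 14.2% to 24.1% in the other 5 heart libraries, and 1485 tested genes were at 0 in it, against 125 to 503. Its TMM factor was 0.4412, against 1.057 to 1.349 in those 5, which raises its scaled CPM. siNC replicate 3 had 461 tested genes at 0, against 78 to 137 in the other 5 NRVC libraries. Results that rest on these libraries are therefore given with and without them. Jmjd4 itself lay at 4.92 to 9.63 CPM in cKO hearts and 8.04 to 19 CPM in flox hearts, and at 3.43 to 3.58 CPM in siJmjd4 NRVCs and 0.982 to 4.4 CPM in siNC NRVCs. Neither pair of groups separated, so the counts do not show the knockdown in the NRVCs. They do not clearly show the knockout in the hearts either. There flox replicate 2, at 8.04 CPM, lay below cKO replicates 1 and 3, at 8.95 and 9.63 CPM. The directions below are those of the libraries labelled cKO and siJmjd4.

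Promoter sequence was examined because the members' transcripts lay lower together in cKO hearts. RefSeq windows on GRCm38.p6, from 250 bases before to 50 bases after the start site, were matched for 29 of the 32 members. They were searched on both strands for the element of nuclear respiratory factor 1, a regulator of respiratory chain genes, spelled GCGCNTGCGC, and for that of the oestrogen-related receptors, regulators of mitochondrial metabolism in heart, spelled TNAAGGTCA. A gene can have more than 1 window, and the 29 members had 37. The first element was found in 4 of these 37 windows, those of Dld, Sucla2, Sdha and Sdhd, and in 4.6% of all 32851 windows. The second was found in 1 of the 37 (Sdhd) and in 1.28% of all windows. A match is a description of letters in a window, and binding was not measured. The stretches around the matches of the first element are shown on the strand of the gene, with the match in capitals; Sdha held 3, at chr13:74350319-74350348, chr13:74350276-74350305 and chr13:74350231-74350260 (minus strand). Those of Sdhd, Dld and Sucla2 are chr9:50603909-50603938 (minus), chr12:31351422-31351442 (minus) and chr14:73552759-73552788 (plus).
Sdha, first base of the match 98 bases before the start site: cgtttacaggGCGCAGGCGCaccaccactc
Sdha, 55 bases before: ggggcgtgttGCGCAGGCGCagaatcttcc
Sdha, 10 bases before: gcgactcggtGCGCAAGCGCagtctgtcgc
Sdhd, 79 bases before: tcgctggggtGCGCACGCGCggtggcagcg
Sucla2, 17 bases before: ctgcgtctctGCGCCTGCGCggtgcccagg
Dld, 40 bases after: cgtatatgttGCGCAGGCGCa

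In cKO hearts, transcripts of nearly every step of the cycle lay below those of flox hearts, and how many passed the test depended on flox replicate 3. Over all 6 libraries, 29 of the 32 members had a lower value in cKO hearts, with a median log2 fold change (cKO over flox) of -1.17 against 0 over all genes tested. None of the 32 was called, where 0.508% of 18094 genes tested were called in either direction and 0.138% as lower. At an unadjusted p under 0.05 the count was 19 of 32, against 15% of all genes, and DESeq2's Wald test called 15 lower, against 4.38% of all genes. The cKO and flox values did not overlap in 24 members that were lower, against 11.2% of all genes, and in 1 that was higher, against 14.9%. Without flox replicate 3, 11 members were called lower and none higher, against 2.93% and 4.26% of 19094 genes tested. In that fit 31 of the 32 had a lower value, and the median was -0.84 against 0.02 over all genes.

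The 11 members called lower without flox replicate 3 included Dlat and Dld of the pyruvate dehydrogenase complex. Others were Cs, Idh3a and Idh3b of the citrate and isocitrate steps. Ogdh, Ogdhl, Dlst and Sucla2 came from the steps between 2-oxoglutarate and succinate. Sdha of succinate dehydrogenase and Got1 of the shuttle completed them. In bulk tissue, fewer cells of a type and less RNA per cell cannot be told apart. Cardiomyocyte markers moved with the members: the summed level of 10 of them, all 10 with a lower value in cKO hearts, was 33200 to 36200 CPM in cKO hearts and 54200 to 87300 CPM in flox hearts. Set against that sum, the summed CPM of the 32 members was 0.229, 0.29 and 0.202 of it in cKO replicates 1, 2 and 3, and 0.285, 0.3 and 0.312 in flox replicates 1, 2 and 3. By this ratio the groups overlapped, with cKO replicate 2 above flox replicate 1. Fibroblast markers went the other way, all 8 with a higher value in cKO hearts and a sum of 2870 to 7450 CPM in cKO hearts against 796 to 1220 CPM in flox hearts. Macrophage markers summed to 674 to 965 CPM in cKO hearts and 337 to 700 CPM in flox hearts. Endothelial markers summed to 1080 to 1240 CPM in cKO hearts and 1380 to 1740 CPM in flox hearts, with 4 markers lower and 3 higher. Smooth muscle and pericyte markers summed to 853 to 879 CPM in cKO hearts and 946 to 1260 CPM in flox hearts, with 3 lower and 4 higher. Lymphocyte markers summed to 6.19 to 6.83 CPM and 1.92 to 2.91 CPM, and erythroid markers to 137 to 731 CPM and 297 to 1400 CPM. The 5 skeletal muscle markers summed to 1820 to 3640 CPM in cKO hearts and 1930 to 6120 CPM in flox hearts, with Myh4 at 0 in every heart library, and the 3 adipocyte markers to 0 CPM in cKO hearts and 0 to 0.141 CPM in flox hearts. The part of these cell types in the members' fold changes was not tested.

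**Figure D1:**
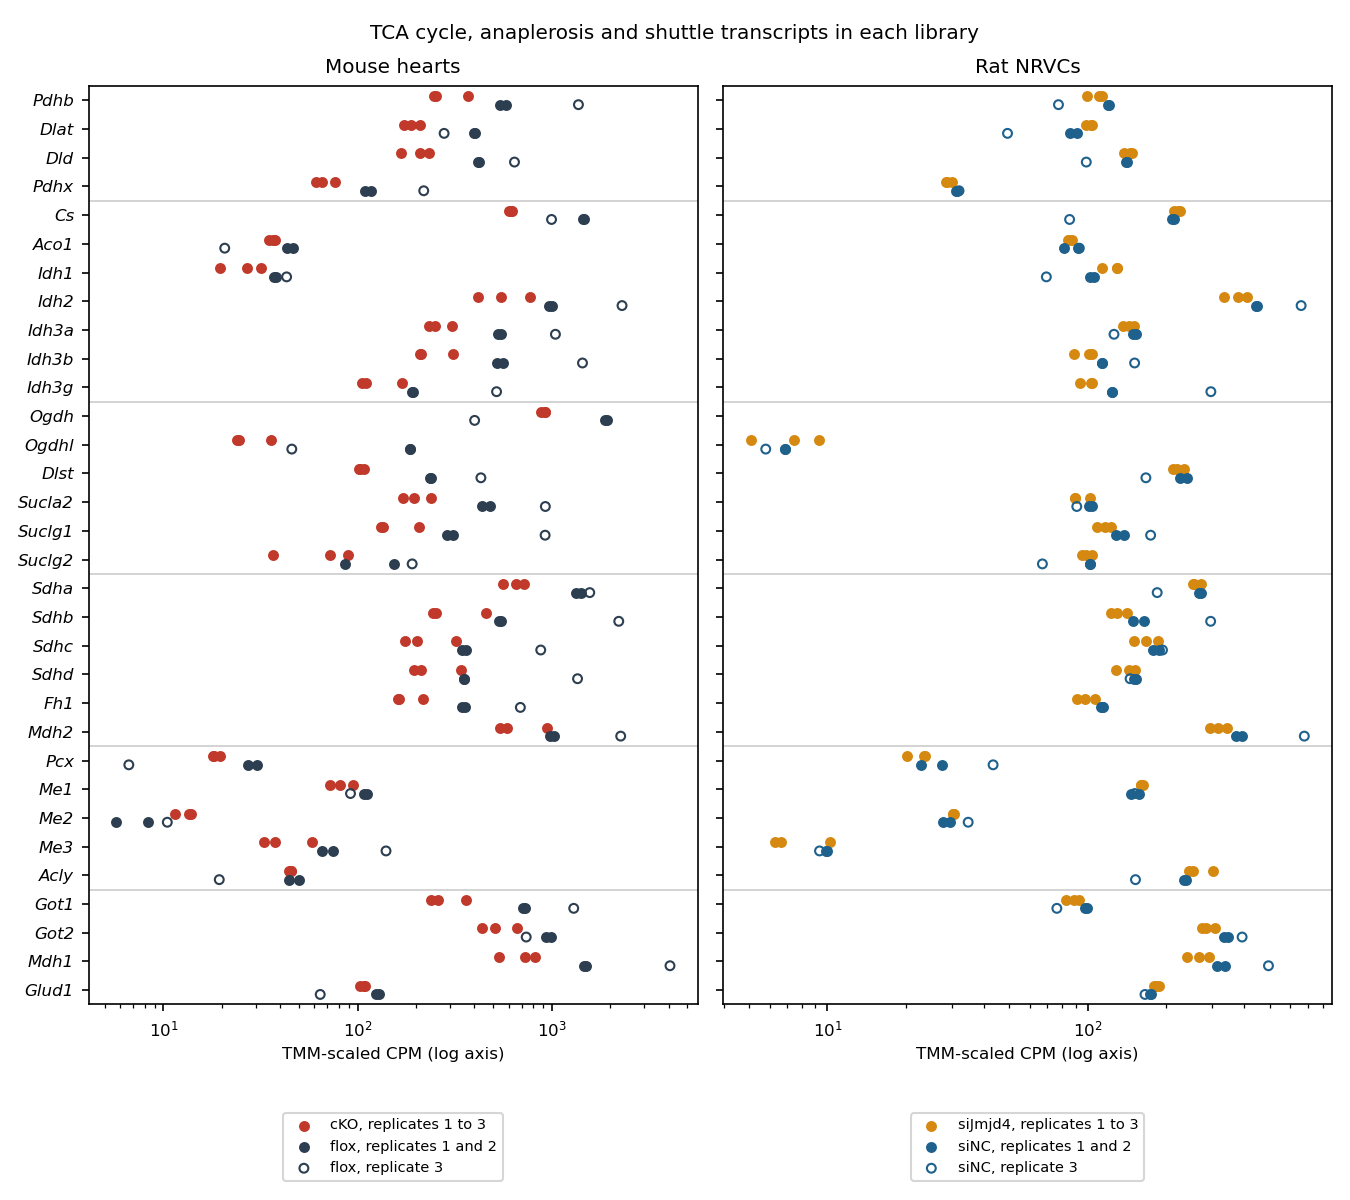
TMM-scaled CPM (log axis) of each member in each library, hearts on the left (cKO above flox in each gene's row) and NRVCs on the right (siJmjd4 above siNC), with flox and siNC replicate 3 as open circles and grey lines between role groups. In the hearts most cKO points lie left of the flox points, and flox replicate 3 lies to the right of flox replicates 1 and 2 for 22 members and to the left for 10; in the NRVCs the groups lie close together.

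Flox replicates 1 and 2 agreed within 1.2-fold for 30 of the 32 members. On the TMM scale, flox replicate 3 lay above both for 22 members and below both for 10. As a share of all counts, the members together made up 1.2% of flox replicate 3, below the 1.67% and 1.73% of flox replicates 1 and 2. The shares in cKO replicates 1, 2 and 3 were 0.999%, 1.12% and 0.986%. By this measure flox replicate 3 lay nearer to cKO replicate 2 than to the other flox hearts. Flox replicate 3 tended to lie lower the longer the transcript. Its ratio to the mean of the other flox libraries was 4.1 for Sdhb, 3.86 for Sdhd and 3.08 for Suclg1, whose longest transcripts are 1232, 1231 and 2767 bases. For Ogdh, Pcx and Ogdhl, with longest transcripts of 4127, 4148 and 3723 bases, the ratio was 0.21, 0.229 and 0.246. Length ordered the members only in part: Me3, at 4485 bases the longest, had a ratio of 1.99, and Sdhc, at 3171 bases, 2.49. Over the 32 members the ratio of a library to its own group correlated with transcript length, at a Spearman rho of -0.62 for cKO replicate 2, -0.73 for flox replicate 3 and 0.39 to 0.7 for the other 4; the members share each library's depth and scaling, so this is a description. Correcting each library for its trend with length, over all 6 libraries, called 12 members lower, against 2.66% of all genes. Compared with the 11 above, that count gained Fh1 and Mdh1 and lost Ogdh.

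The pyruvate dehydrogenase core converts pyruvate to acetyl-CoA, the entry of carbohydrate carbon to the cycle. Its 4 members (Pdhb, the beta subunit of the E1 component; Dlat, the E2 acetyltransferase; Dld, the E3 dehydrogenase that also serves the 2-oxoglutarate complex; Pdhx, which binds E3) all had lower values, with a median log2 fold change of -1.2 over all 6 libraries and -1 without flox replicate 3. Dlat had 189, 210.4 and 174 CPM in cKO replicates 1, 2 and 3, against 404, 399 and 279 CPM in flox replicates 1, 2 and 3. Dld had 209, 233 and 167 CPM in the cKO hearts and 417, 420.4 and 643 CPM in the flox hearts. The groups did not overlap for either gene, nor for Pdhb or Pdhx. For Dlat, edgeR's quasi-likelihood test gave a log2 fold change of -0.91 (SE 0.34, adjusted p = 0.277), which was -1.07 (SE 0.21, adjusted p = 0.03) when flox replicate 3 was left out. Dld gave -1.28 (SE 0.37, adjusted p = 0.175) in edgeR's test and -1.04 (SE 0.23, adjusted p = 0.0439) without that library. Pdhb and Pdhx gave -1.52 and -1.13 over all 6 libraries and had adjusted p of 0.076 and 0.0802 in edgeR's test without it.

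Citrate synthase (Cs) starts the cycle, and the NAD-dependent isocitrate dehydrogenase, built from the catalytic subunit Idh3a with Idh3b and Idh3g, carries its first oxidation. Cs stood at 615, 628 and 602 CPM in cKO hearts, against 1459.9, 1455 and 998 CPM in flox hearts. Every cKO value was below every flox value, and the 3 cKO libraries lay within a narrow range (615 ± 12.7 CPM, SD, n = 3, against 1305 ± 265 CPM in flox hearts). The fold change of Cs was -1.09 on the log2 scale (SE 0.37, adjusted p = 0.241, edgeR) and -1.24 (SE 0.21, adjusted p = 0.0207) without flox replicate 3. Idh3a had 234, 308 and 249.5 CPM in cKO hearts and 551, 532 and 1046 CPM in flox hearts. For Idh3b the values were 209, 312 and 213 CPM in cKO hearts and 520.0, 559 and 1441 CPM in flox hearts. Neither gene's groups overlapped, and flox replicate 3 was the highest library for both. Their log2 fold changes were -1.43 and -1.78, with adjusted p of 0.18 and 0.185 in edgeR's test, and -1.03 and -1.14, with adjusted p of 0.0405 and 0.0458, without flox replicate 3. The last 5 bases of Idh3b overlap the end of Nop56 on the other strand, and whether the counting used strand is not stated in the labels.

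Idh3g, Idh2 and Idh1 did not pass the test in either fit. Idh3g gave -1.23 over all 6 libraries and -0.57 without flox replicate 3, and Idh2, the NADP-dependent mitochondrial enzyme, -1.3 and -0.77. Cytosolic Idh1 had 27.1, 31.8 and 19.5 CPM in cKO hearts and 37.3, 38.1 and 43.1 CPM in flox hearts, which did not overlap (log2 fold change -0.6, adjusted p = 0.422, edgeR). Aco1, the cytosolic aconitase that also binds iron-responsive elements in RNA, was near 0 over all 6 libraries (-0.02, adjusted p = 0.99, edgeR) and at -0.3 without flox replicate 3. Its sign turned under total-count scaling, at 0.41.

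The steps from 2-oxoglutarate to succinate held the lowest median among the role groups, -1.57 over all 6 libraries and -1.12 without flox replicate 3. Ogdhl, a homologue of the 2-oxoglutarate dehydrogenase E1 subunit best known from brain, had the lowest fold change of the 32 members in either fit. It had 23.9, 24.5 and 35.7 CPM in cKO hearts, against 186, 187 and 45.9 CPM in flox hearts. All 3 cKO values were below the lowest flox value, which was that of replicate 3. Ogdhl gave -2.32 on the log2 scale (SE 0.58, adjusted p = 0.133, edgeR), and without flox replicate 3 it was -2.73 (SE 0.24, adjusted p = 0.00462), a 6.65-fold lower level. Ogdh, the E1 subunit itself, had 922, 878 and 922 CPM in cKO hearts and 1893, 1924 and 401 CPM in flox hearts. Here flox replicate 3 lay under the cKO hearts while flox replicates 1 and 2 lay above them. Ogdh thus gave -0.63 (SE 0.62, adjusted p = 0.707, edgeR) over all 6 libraries and -1.07 (SE 0.21, adjusted p = 0.0323) without that library.

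Dlst, the E2 succinyltransferase of the same complex, had 104, 102 and 107 CPM in cKO hearts and 237, 239 and 432 CPM in flox hearts. The groups lay well apart, with a cKO mean of 104 ± 2.88 CPM and a flox mean of 302 ± 112 CPM (SD, n = 3 each). Its log2 fold change of -1.54 (SE 0.38) had the smallest p of the 32 members over all 6 libraries (adjusted p = 0.127, edgeR), and it was -1.19 (SE 0.19, adjusted p = 0.0175) without flox replicate 3. Sucla2, the ATP-forming beta subunit of succinyl-CoA ligase, stood at 195, 239 and 172 CPM in cKO hearts and 439, 480.0 and 928 CPM in flox hearts, without overlap. Its fold change was -1.61 on the log2 scale (adjusted p = 0.152, edgeR) and -1.18 (adjusted p = 0.0307) without flox replicate 3. The shared alpha subunit Suclg1 gave -1.68 and the GTP-forming beta subunit Suclg2 -1.12 over all 6 libraries; without flox replicate 3 they gave -0.92 and -0.85, with adjusted p of 0.0883 and 0.283 in edgeR's test.

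**Figure D2:**
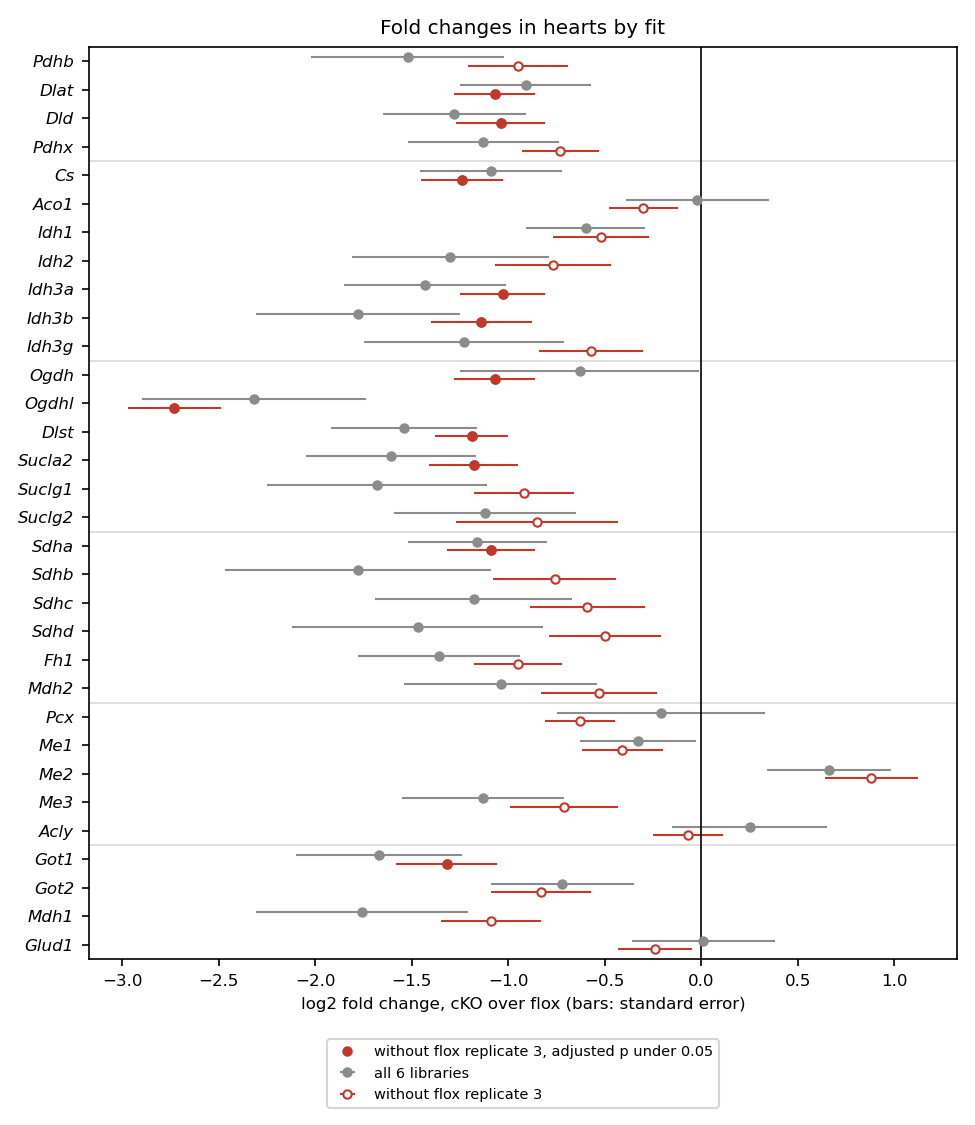
Log2 fold change, cKO over flox, of each member with its standard error, over all 6 heart libraries (grey) and without flox replicate 3 (red, filled where the adjusted p was under 0.05). Ogdhl lies furthest to the left in both fits, 11 members are filled, Me2 is the member to the right of 0 in both, and the red bars are shorter than the grey ones.

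Succinate dehydrogenase, which is also complex II of the respiratory chain, is made of the flavoprotein Sdha, the iron-sulphur protein Sdhb and the membrane anchors Sdhc and Sdhd. Sdha had 653, 717 and 562 CPM in cKO hearts and 1333, 1415 and 1571 CPM in flox hearts. It was among the members on which flox replicate 3 differed least from the other flox hearts, at a ratio of 1.14 to their mean. Sdha gave -1.16 (SE 0.36, adjusted p = 0.201, edgeR) and, without flox replicate 3, -1.09 (SE 0.23, adjusted p = 0.0376) on the log2 scale. Sdhd had 196, 340.0 and 211 CPM in cKO hearts and 352, 353 and 1359 CPM in flox hearts. Its groups were apart by the narrow gap between cKO replicate 2 and flox replicate 1, and its log2 fold change was -1.47 (adjusted p = 0.353, edgeR), or -0.5 (adjusted p = 0.372) without flox replicate 3. Sdhb and Sdhc gave -0.76 and -0.59 without that library and were not called.

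Fumarase (Fh1) and mitochondrial malate dehydrogenase (Mdh2) close the cycle. Fh1 had 161, 219 and 164 CPM in cKO hearts, against 346, 357 and 689.8 CPM in flox hearts. All cKO values were the lower ones, and Fh1 had the smallest p of the succinate-to-oxaloacetate group (log2 fold change -1.36, SE 0.42, adjusted p = 0.199, edgeR). Without flox replicate 3 it gave -0.95, just outside the threshold at an adjusted p of 0.0536 in edgeR's test. Fh1 overlaps Kmo on the other strand. Mdh2 had 589.9, 950.0 and 542 CPM in cKO hearts and 982, 1028 and 2267 CPM in flox hearts, a log2 fold change of -1.04 that was -0.53 (adjusted p = 0.359, edgeR) without flox replicate 3.

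The enzymes that feed and drain the cycle had values on both sides of 0: none of the 5 was called in either fit, and their median was -0.21 over all 6 libraries and -0.41 without flox replicate 3. Whether these medians differ between role groups was not tested. Me3, the mitochondrial NADP-dependent malic enzyme, had 33.1, 58.3 and 37.4 CPM in cKO hearts and 65.9, 75.1 and 140.2 CPM in flox hearts, and its log2 fold change was -1.13 (adjusted p = 0.282, edgeR). Me2, the mitochondrial malic enzyme that can use NAD, was the single member higher in cKO hearts without overlap. It had 11.4, 13.5 and 13.8 CPM in cKO hearts, against 8.32, 5.72 and 10.5 CPM in flox hearts. Its log2 fold change was 0.66 (SE 0.32, adjusted p = 0.391, edgeR) and 0.88 (SE 0.24, adjusted p = 0.0802) without flox replicate 3; limma's voom with quality weights, over all 6 libraries, called it higher, with 12% of all genes. Cytosolic Me1 and pyruvate carboxylase (Pcx), which makes oxaloacetate from pyruvate, gave -0.33 and -0.21 over all 6 libraries, and 0.19 and 0.14 under total-count scaling. Acly, which cleaves exported citrate in the cytosol, had 45.3, 45.2 and 44.6 CPM in cKO hearts and 50, 44.5 and 19.4 CPM in flox hearts, so that cKO hearts lay among the flox hearts (log2 fold change 0.25, or -0.07 without flox replicate 3).

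In the malate-aspartate shuttle, cytosolic Got1 and Mdh1 work against mitochondrial Got2 and Mdh2. Got1 had 260.2, 364 and 238 CPM in cKO hearts and 728, 711 and 1299 CPM in flox hearts, without overlap. Its log2 fold change was -1.67 (SE 0.43, adjusted p = 0.137, edgeR), and -1.32 (SE 0.26, adjusted p = 0.0302) without flox replicate 3. Mdh1 had 532, 818 and 728 CPM in cKO hearts and 1462, 1495 and 4069 CPM in flox hearts, and gave -1.76 (adjusted p = 0.208, edgeR) and, without flox replicate 3, -1.09 at an adjusted p of 0.0506. Both cytosolic enzymes thus lay far apart between the groups, while only Got1 of this group was called. Got2 gave -0.72 and -0.83 (adjusted p = 0.104, edgeR, without flox replicate 3), and its processed pseudogene Got2-ps1 also holds counts, so reads may be shared. Glud1, the glutamate dehydrogenase that links 2-oxoglutarate to glutamate, had 109.6, 108 and 103 CPM in cKO hearts and 129, 125 and 64.2 CPM in flox hearts. Its cKO values lay between those of flox replicate 3 and of flox replicates 1 and 2, at a log2 fold change of 0.01 and of -0.24 without flox replicate 3.

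Levels can be compared between genes only per length, here as CPM per kilobase of the longest transcript. In flox replicates 1 and 2 the highest mean levels were those of Mdh1 (697 CPM per kilobase), Mdh2 (626), Idh2 (553), Cs (485), Sdha (474) and Ogdh (462). In cKO hearts Mdh2 (432 CPM per kilobase) stood above Mdh1 (326) and Idh2 (324). The lowest in both groups were Me2, at 3.84 CPM per kilobase in cKO hearts and 2.09 in flox replicates 1 and 2, and Pcx, at 4.5 and 6.97. Ogdhl was at 7.52 CPM per kilobase in cKO hearts and 50.1 in flox replicates 1 and 2, under Ogdh at 220.0 and 462.

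Ratios between related members within a library do not depend on its scaling, though a trend with length can still enter where lengths differ; 7 such pairs, chosen after the values were seen and so given with no test, are plotted by library. The ratio of Ogdhl to Ogdh, whose longest transcripts are 3723 and 4127 bases, was 0.0259, 0.0279 and 0.0387 in cKO replicates 1, 2 and 3, against 0.0981, 0.0972 and 0.114 in flox replicates 1, 2 and 3. Here flox replicate 3 lay beside the other flox hearts, and the mean log2 ratio differed by -1.76 (cKO minus flox), or 3.39-fold lower. Idh3b to Idh3g was 1.99, 1.84 and 1.93 in cKO hearts and 2.73, 2.89 and 2.77 in flox hearts, a difference of -0.55 in log2 with no overlap. Got1 to Got2 (0.507, 0.547 and 0.542 in cKO hearts, 0.775, 0.719 and 1.76 in flox hearts) and Mdh1 to Mdh2 (0.902, 0.861 and 1.34 in cKO hearts, 1.49, 1.45 and 1.79 in flox hearts) also did not overlap. In the cytosolic-to-mitochondrial pairs, all cKO ratios were therefore the lower ones, by a narrow gap for Mdh1 to Mdh2. In NRVCs, Got1 to Got2 went the other way, at 0.302 to 0.311 with siJmjd4 and 0.194 to 0.297 with siNC, and Mdh1 to Mdh2 overlapped. How often pairs of genes at large separate was not examined.

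**Figure D3:**
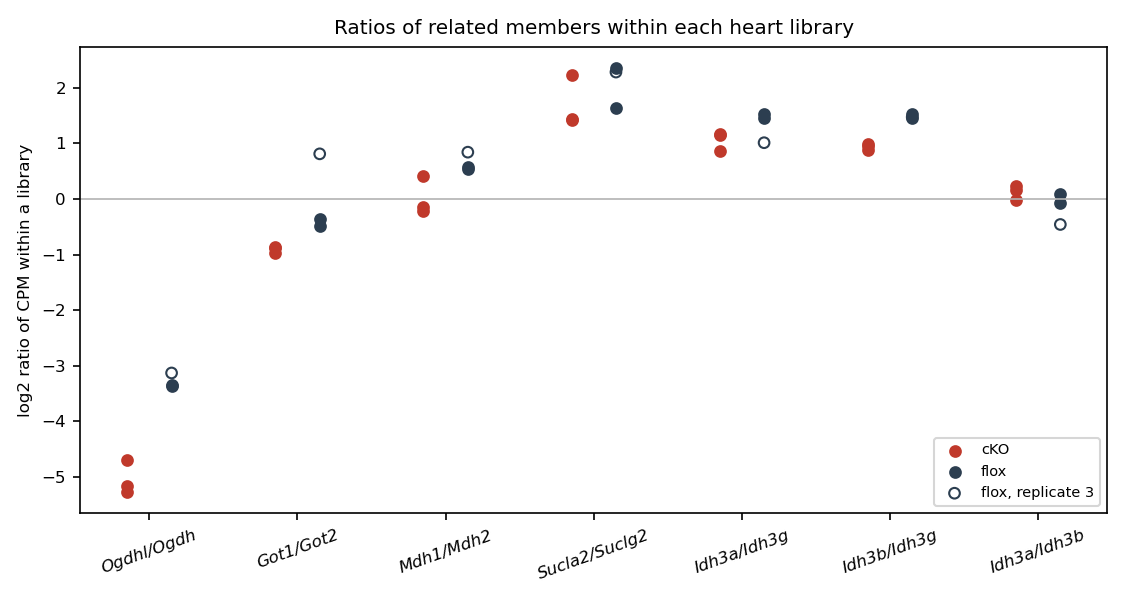
Log2 ratio of CPM between related members within each heart library, cKO left of flox for each pair, with flox replicate 3 open. Ogdhl/Ogdh, Got1/Got2, Mdh1/Mdh2 and Idh3b/Idh3g show no overlap between cKO and flox hearts; the other 3 pairs overlap.

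Across fits, members were called lower more often than genes at large wherever any member was called. Without flox replicate 3 and cKO replicate 2, the heart libraries with a negative length trend, 27 of 32 were called lower, against 9.53% of all genes tested. With flox replicate 3 left out and the length correction applied, an alternative added after the data were seen, 23 were, against 6.86%. limma's voom with quality weights over all 6 libraries called 24 lower, against 9.32%. Under total-count scaling, the replicate block, and the fits that leave out any single library other than flox replicate 3, edgeR called no member. In each of these fits it also called 0% of all genes as lower, so nothing particular to the members is read from them. With DESeq2's size factors, the other filters, or mitochondrial genes left out, edgeR called no member either, against 0.121% to 0.175% of all genes as lower. Total counts moved the median of all genes to 0.54 and that of the members to -0.49.

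**Figure D4:**
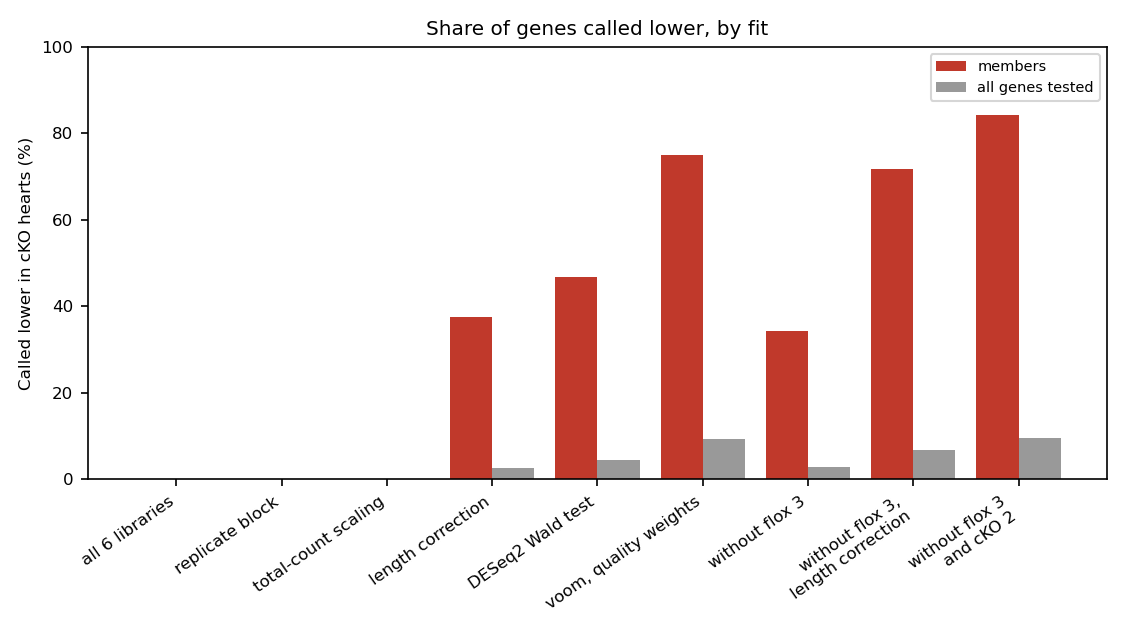
Share (%) of the 32 members (red) and of all genes tested (grey) called lower in cKO than in flox hearts at an adjusted p under 0.05, by fit. The first 3 fits called none of the members. In the other 6 the members' bars are several times those of all genes, the highest being the fit without flox replicate 3 and cKO replicate 2. Other fits that called no member are not plotted: DESeq2 size factors, no filter, a filter at a mean of 5 CPM, and mitochondrial genes left out. Those that leave out any single library other than flox replicate 3 also called none and are not plotted.

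Other genes of the pathway, a separate list of 47 (partner subunits, kinases and phosphatases of pyruvate dehydrogenase, carriers, glutaminases and propionate enzymes), were all in the mouse table and 44 were tested. Of these 37 had a lower value in cKO hearts, with a median log2 fold change of -0.84, and none was called over all 6 libraries. Without flox replicate 3, 9 of the 44 were called lower and 2 higher, against 2.93% and 4.26% of all genes tested. The count called higher is thus near the share of all genes. Pdp2, a phosphatase that activates pyruvate dehydrogenase, had 6.77, 5.1 and 7.15 CPM in cKO hearts and 25.4, 20.1 and 12.1 CPM in flox hearts, and fell by 1.84 on the log2 scale without flox replicate 3 (adjusted p = 0.0104, edgeR). Pdk3, a kinase that inactivates pyruvate dehydrogenase, had 19.4, 18.6 and 8.96 CPM in cKO hearts and 2.4, 2.79 and 4.15 CPM in flox hearts, and rose by 2.6 (adjusted p = 0.0164). Cardiac muscle is best known for the kinases Pdk4 and Pdk2, and neither was called. Their values went the other way from Pdk3. Pdk4 had 124, 89.6 and 46.4 CPM in cKO hearts and 221, 197 and 155 CPM in flox hearts. Without flox replicate 3 it gave -1.26 (adjusted p = 0.111, edgeR), and Pdk2 gave -0.94 (adjusted p = 0.0784). Pdk1 gave 0.26 in that fit and was not called.

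Among the carriers, Slc25a13, the aspartate-glutamate exchanger citrin of the shuttle, had 45.4, 53.2 and 58 CPM in cKO hearts and 134, 138 and 150.1 CPM in flox hearts. It gave -1.38 without flox replicate 3 (adjusted p = 0.0132, edgeR), and Slc25a22, a glutamate carrier, gave -0.98 (adjusted p = 0.0256). The related carrier Slc25a12 had 119, 137 and 95.7 CPM in cKO hearts and 228, 221 and 265 CPM in flox hearts. It gave -0.93 without flox replicate 3 (adjusted p = 0.0585, edgeR), and Slc25a11 gave -0.83 (adjusted p = 0.107), so neither was called. The citrate carrier Slc25a1, named after its values were seen, had 9.9, 16.4 and 12.6 CPM in cKO hearts and 6.01, 5.32 and 5.56 CPM in flox hearts, and rose by 1.2 without flox replicate 3 (adjusted p = 0.0465, edgeR). The propionate enzymes Pcca (-1.27, adjusted p = 0.0123, edgeR) and Mut (-1.2, adjusted p = 0.0205), which lead to succinyl-CoA, fell without flox replicate 3. So did the alanine transaminase Gpt (-1.81, adjusted p = 0.0161, edgeR).

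In NRVCs given siJmjd4, the members stayed close to siNC. None of the 31 was called, where 0.00645% of 15497 genes tested, a single gene, was. The median log2 fold change (siJmjd4 over siNC) was -0.06, against 0.01 over all genes, and 18 of 31 had a lower value. Individual values ran from -0.86 for Idh3g to 0.44 for Dlat, with adjusted p of 0.379 or more in edgeR's test, and 1 member (Mdh1) had an unadjusted p under 0.05, against 8.71% of all genes. DESeq2's Wald test called none of the 31 either, against 1.09% of all genes. The groups did not overlap in 10 members that were lower, against 17.8% of all genes, and in 6 that were higher, against 22.4%.

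By role, the members with the smallest p were Dlat, Idh3g, Suclg1, Mdh2, Pcx and Mdh1. Dlat had 103, 104 and 98.9 CPM in siJmjd4 NRVCs, against 85.2, 91.1 and 49.2 CPM in siNC NRVCs. Idh3g had 103, 104 and 93.5 CPM in siJmjd4 NRVCs and 124, 124 and 297 CPM in siNC NRVCs. In both, siNC replicate 3 lay far from the other siNC libraries, on the side away from the siJmjd4 values. Mdh1 had 292, 267 and 241 CPM in siJmjd4 NRVCs and 338, 313 and 495 CPM in siNC NRVCs (log2 fold change -0.52, SE 0.22, adjusted p = 0.379, edgeR). Mdh2 had 344, 317 and 296 CPM in siJmjd4 NRVCs and 371, 391 and 679 CPM in siNC NRVCs, a log2 fold change of -0.59. Both malate dehydrogenases were thus lower without overlap, with siNC replicate 3 the highest library.

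Suclg1 had 122, 117 and 109 CPM in siJmjd4 NRVCs and 129, 138 and 174 CPM in siNC NRVCs, without overlap. Pcx had 23.6, 20.2 and 23.8 CPM in siJmjd4 NRVCs and 22.9, 27.5 and 43.3 CPM in siNC NRVCs, which overlapped. Without siNC replicate 3 none of the 31 was called, against 0.57% of 15798 genes tested, the smallest adjusted p was 0.0749 (Idh3g, edgeR), and the log2 fold changes ran from -0.36 for Me3 to 0.26 for Idh1. With siJmjd4 replicate 1 left out as well, 9 members were called lower, against 5.18% of all genes, and Idh1 higher, against 10.6%; the 9 were Idh2, Idh3g, Suclg1, Sdhb, Fh1, Mdh1, Mdh2, Me3 and Got2. Among the 47 other genes of the pathway 43 were tested and none was called; without siNC replicate 3 Pdpr, a regulator of the pyruvate dehydrogenase phosphatase, rose by 0.89 (adjusted p = 0.0491, edgeR). Cardiomyocyte markers summed to 8890 to 11100 CPM in siJmjd4 NRVCs and 11700 to 17700 CPM in siNC NRVCs, and fibroblast markers to 42800 to 49500 CPM and 36200 to 44100 CPM. The cultures thus held much RNA of fibroblast marker genes, and its part in the members' values was not tested. Set against the cardiomyocyte sum, the summed CPM of the 31 members was 0.424, 0.487 and 0.486 in siJmjd4 replicates 1, 2 and 3. In siNC replicates 1, 2 and 3 this ratio was 0.412, 0.416 and 0.304. Every siJmjd4 ratio was thus the higher, while in the hearts the groups overlapped.

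Whether the members responded differently in the hearts and in the NRVCs was tested directly in a model of all 12 libraries, over 13484 genes paired by symbol. The difference (hearts minus NRVCs, log2) was negative in 28 of 31 members, and none was called, against 1.68% of all genes. The smallest adjusted p was that of Dlst (difference -1.6, SE 0.4, adjusted p = 0.0725, edgeR). Without flox replicate 3, 8 members were called, against 6.57% of all genes: Dlat, Dld, Idh3a, Ogdhl, Dlst, Sucla2, Sdha and Got1, all with the lower response in the hearts. Without siNC replicate 3 as well the count was 11, against 12.8%, and without the 4 libraries whose ratio to their group fell with transcript length, an alternative added after the data were seen, it was 24, against 22.2%. Species, age, tissue, agent and culture all differ between the systems and cannot be told apart.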

How the data were processed

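The authors deposited 1 table of raw counts per species, whole numbers per gene symbol, not normalized; 25957 mouse and 9397 rat symbols were at 0 in every library. Per the submitters' processing notes, the tools included edgeR 3.20.9, StringTie 1.3.4 and HISAT2 2.1.0 and the builds were rn6 and mm10, without their roles. The annotation, counting rules, library kit and strandedness were not given in the sources used here. Groups come from the labels.

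From the deposited counts, each system was fitted on its own 6 libraries with edgeR 4.0.16 in R 4.3.3: filterByExpr (18094 mouse and 15497 rat genes), TMM scaling and the robust quasi-likelihood test, two-sided, with Benjamini-Hochberg adjustment over all genes tested and a threshold of 0.05. Standard errors are of log2 fold changes. The members and the lists were chosen with earlier results of these data known. Values in every library are given for the members with the smallest p in each role group and those called with or without flox or siNC replicate 3, and related genes called are named up to 8 by smallest p, of which 1 is not reported here; a few others were named after their values were seen. Alternatives were DESeq2 1.42.0 (Wald test, size factors), limma 3.58.1 (voom with quality weights), total counts, a filter at a mean of 5 CPM or none, a transcript-length correction (lowess span 0.3), mitochondrial genes left out, a replicate block and leaving out libraries. Lengths and positions come from GENCODE M21 on GRCm38 and covered 80% of tested mouse and 84% of tested rat genes, the rat ones by the mouse symbol. Counting error at this depth is small beside the spread between libraries. No pair of replicates agreed within sampling noise, since chi-square was 26.12 to 1581 per degree of freedom. Same-numbered libraries did not deviate together, with r of 0.36, -0.48 and -0.33 in hearts and -0.14, -0.02 and -0.15 in NRVCs, so numbers were not taken as pairs. The code was tested on simulated counts.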

Additional observations from a re-analysis of the deposited data

Results flagged for a closer look

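For 3 of 31 members every cKO heart lay below every flox heart while every siJmjd4 culture lay above every siNC culture, as in 1.61% of the 11850 genes tested in both systems; with 3 members, nothing particular to them is read from this. Dlat had a log2 fold change of -0.91 in hearts and 0.44 in NRVCs, and the difference between the systems was -1.36 (adjusted p = 0.13 in edgeR's quasi-likelihood test over all 12 libraries) and -1.52 (adjusted p = 0.0287) without flox replicate 3. Cs gave -1.09 in hearts and 0.38 in NRVCs, a difference of -1.46 (adjusted p = 0.176, edgeR) and of -1.63 (adjusted p = 0.0547) without that library. Idh1 gave -0.6 in hearts and 0.43 in NRVCs, a difference of -1.02 (adjusted p = 0.195, edgeR) and of -0.97 (adjusted p = 0.108) without it. In the NRVCs siNC replicate 3 was the lowest library for all 3 genes, and without it their log2 fold changes there were 0.21, 0.05 and 0.26. None of the 3 was called in the NRVCs in either of these fits.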

How the results depend on the processing

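How many members were called in hearts changed with the test, with flox replicate 3 and with the length correction. Members called numbered 15 under DESeq2's Wald test, 12 with the transcript-length correction, 25 under limma's voom with quality weights (24 lower and Me2 higher) and 23 with that correction and flox replicate 3 left out, which was added after the data were seen; leaving out libraries gave 0 to 27. Under the replicate block, no member and no gene was called in either system (0 of all genes in hearts, 0 in NRVCs), the members' medians were -1.1 in hearts and -0.06 in NRVCs, and the smallest adjusted p of a member was 0.474 and 0.523. All genes called in hearts numbered 1748 (DESeq2), 20 (total counts), 146 (no filter), 1015 (length correction), 3851 (voom) and 2632 (correction without flox replicate 3), and 0 to 3585 on leaving out libraries. The members' heart median was -0.49 with total counts. In NRVCs all genes called numbered 168 (DESeq2) and 1148 (voom), and 0 to 2470 on leaving out libraries, where members called ran from 0 to 10. The NRVC median was 0.02 (total counts), 0.07 (length correction) and -0.18 to -0.01 on leaving out libraries. Members whose response differed between systems numbered 0 to 11 on leaving out libraries and 24 without the 4 libraries with a negative length trend, added after the data were seen.

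Signs turned for 5 members with small heart fold changes. Aco1 gave 0.41 (total counts), 0 (no filter), 0.07 (replicate block) and -0.3 to 0.19 on leaving out libraries. Pcx gave 0.14 (total counts), 0.04 (replicate block) and -0.63 to 0.13 on leaving out libraries, and Me1 0.19 (total counts). Glud1 gave -0.03 under DESeq2's test and its size factors, -0.11 (length correction), -0.24 (voom), -0.3 (correction without flox replicate 3) and -0.26 to 0.19 on leaving out libraries. Acly gave -0.05 (voom), -0.04 (correction without flox replicate 3) and -0.08 to 0.51 on leaving out libraries. Where all 6 libraries were kept, the cause was not tested.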
